A study of Zea mays with 24 samples.

Results

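The endodermis is the innermost layer of the root's ground tissue, and its cells were compared with 4 other tissues sorted from the maize (Zea mays) root tip. The 3 endodermis libraries were chosen by their label, out of 24 libraries in the series, and were set against the equally weighted mean of epidermis, cortex, stele and quiescent center, with 3 libraries each. The endodermis was sorted as fluorescent protoplasts from a ZmSCR::RFP line in a B73/Hi-II background, in which the SCR promoter drives a red fluorescent protein. Epidermis, cortex and stele came from wild type B73 roots, whose protoplasts were stained for 15 min with the dyes syto 40 and syto 81 before sorting. The quiescent center came from a ZmWOX5::RFP line, again in B73/Hi-II. The groups outside the comparison, all wild type B73, were protoplasts of tips without cap that were not sorted (unsorted protoplasts), whole tips with the cap removed (intact tips), and dissected root cap. All plants were 7 days past germination and grew at 26 °C with 12 h of light. Tissue, line and sorting method therefore change together between the endodermis and the dye-sorted tissues, and cannot be told apart there.

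As background, the endodermis surrounds the vascular cylinder and controls what passes between soil and xylem. Its cells form the Casparian strip, a band of lignin in the wall, and later lay down suberin. In Arabidopsis, the transcription factor SHORT-ROOT moves out of the stele into the neighbouring layer, where SCARECROW (SCR) holds it in the nucleus and both specify endodermis. The SCR promoter is active in the Arabidopsis quiescent center as well. The cortex is the other ground tissue, the epidermis is the outer layer, and the quiescent center holds the slowly dividing cells of the stem cell niche.

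Values are the authors' normalized counts, and differences are on the scale of log2(normalized count + 1). The identifiers are not paired with gene names in the files, and 0 of 39510 matched the reference table. The label "endodermis" was therefore not checked against SCR or Casparian strip genes, and genes are given by identifier, at most 2 higher and 2 lower per comparison. A gene was called when its Benjamini-Hochberg adjusted p in limma was below 0.05 and its log2 difference was at least 1 in size, among 25555 genes tested. Whether replicates are independent harvests is not in the labels; the p-values thus reflect library-to-library spread, which may be technical. The descriptions of the third epidermis, cortex and stele libraries give them the number 2, against 3 in their titles and column names; the number in the title was used. In libraries of this kind, fewer cells of a type and less RNA per cell cannot be told apart.

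The endodermis libraries were the deepest of the sorted tissues, and 1 of them stood apart from the other two. Endodermis replicates 1, 2 and 3 held 44992218, 50289026 and 40707719 reads, against 21978670 to 36642786 reads in the 12 other sorted libraries (means of 45329654 and 30977028, exact two-sided permutation p = 0.0044, adjusted p = 0.018 over 4 measures, 455 splits). Genes at 10 or more numbered 22049, 21163 and 21539 in the endodermis, within the 18676 to 22361 of the other sorted libraries (exact permutation p = 0.576, adjusted p = 0.768). These permutation tests take the 15 sorted libraries as exchangeable. The libraries come as 3 from each of 5 tissues, so the p-values do not measure a difference between tissues. In endodermis replicate 1, 1236 genes with a value of at least 100 were at least 4-fold above both other endodermis libraries, on the value + 1 scale. Endodermis replicates 2 and 3 had 2 and 6 such genes. By the same count single libraries had 597 to 869 genes in the quiescent center, 81 to 550 in the cortex, 17 to 125 in the stele and 34 to 48 in the epidermis. In the other direction, genes at least 4-fold below both others, where those averaged at least 100, numbered 170, 140 and 15 in endodermis replicates 1 to 3. Single libraries had 786 to 1546 such genes in the quiescent center, 50 to 676 in the cortex, 9 to 627 in the epidermis and 8 to 337 in the stele. The 1236 genes of endodermis replicate 1 took 10.02% of the normalized total there, and on average 1.51% of the total of the other two.

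The 1236 genes had a median value of 706 in endodermis replicate 1, above that of every other library, and of 60.7 and 98.8 in replicates 2 and 3. It was 158 to 534 in the stele, 60.5 to 439 in the cortex, 99.0 to 258 in the epidermis and 52.9 to 133 in the quiescent center. Outside the sorted tissues it was 145 to 159 in unsorted protoplasts, 7.14 to 59.3 in intact tips and 261 to 396 in the root cap. Among the 7 other groups, the stele was highest for 441 of the genes (35.7%, beside 15.1% of all genes tested) and the root cap for 393 (31.8%, beside 19.1%). The quiescent center was highest for 88 (7.12%, beside 27.4%). Whether other cells were in that sort was not tested. Of the 1236 genes, 87 (7.04%) were called higher and 79 (6.39%) lower against the mean of the other 4 tissues, near the 8.77% and 7.7% of all genes tested. Without endodermis replicate 1, 22 (1.78%) were called higher and 157 (12.7%) lower, beside 7.16% and 6.64% of all genes tested; the genes were chosen as low in the 2 libraries that remain. Every count below is also given without that library where it moved by more than 1.5 times or turned.

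**Figure D1:**
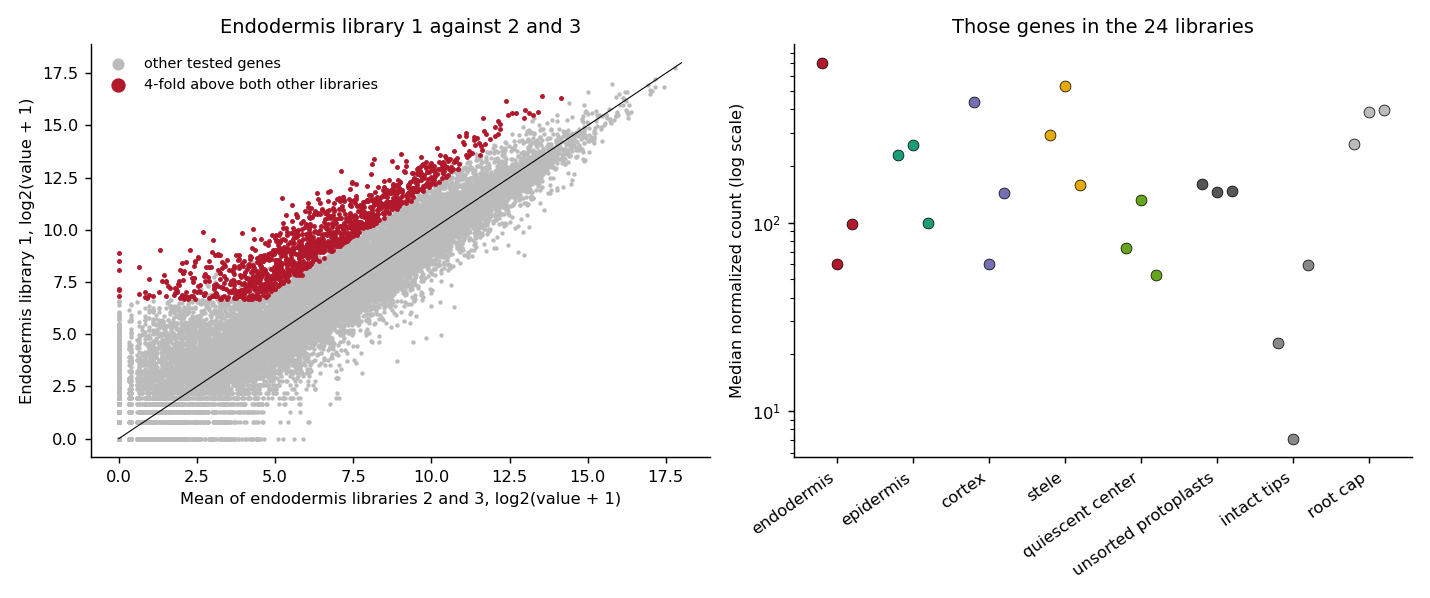
Left, each tested gene's log2(normalized count + 1) in endodermis replicate 1 (vertical) against the mean of replicates 2 and 3 (horizontal), with the line of equality; the 1236 genes in red lie at least 4-fold above both. Right, the median normalized count of those genes in each of the 24 libraries on a log scale (1 point per library, replicates 1 to 3 from left to right): 706 in endodermis replicate 1 against 7.14 in the lowest intact tip library.

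Against the mean of the other 4 sorted tissues, 2241 genes were higher in the endodermis and 1968 lower, which is 8.77% and 7.7% of the genes tested and 16.5% in either direction. The median log2 difference was 2.86 among the genes called higher and −2.46 among those called lower, beside 0.07 over all genes tested. Differences of at least 4 log2 units were reached by 558 higher and 360 lower genes, and of at least 6 by 123 and 69. Without endodermis replicate 1, 1830 genes were higher and 1697 lower. The edgeR quasi-likelihood test on recovered reads put 2750 higher and 1513 lower, while DESeq2 put 2532 higher and 2513 lower.

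**Figure D2:**
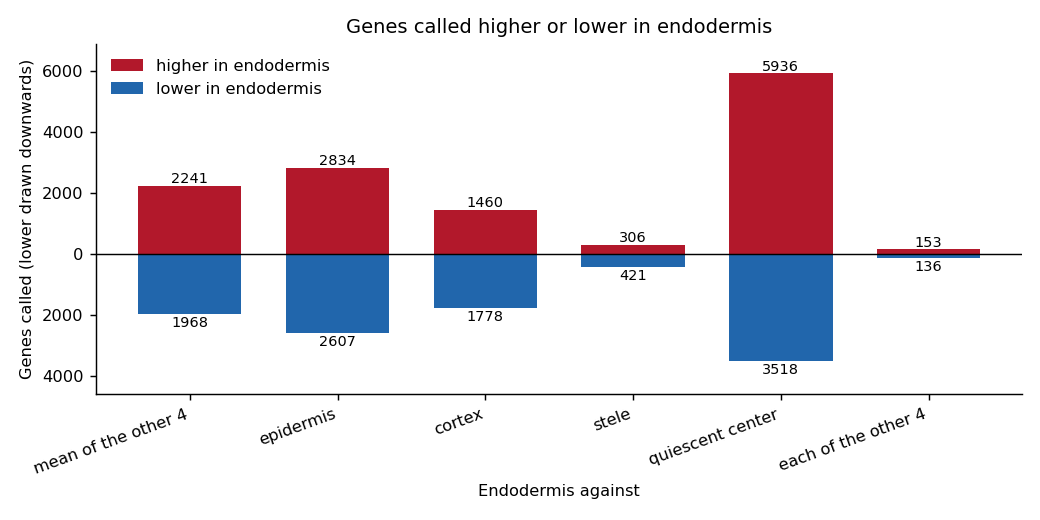
Number of genes called higher (upwards, red) and lower (downwards, blue) in the endodermis in each comparison, by limma over all 24 libraries. The stele differs least (306 and 421) and the quiescent center most (5936 and 3518).

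Zm00001d009514 was found almost only in the endodermis. It had 89.3, 118 and 105 normalized counts in the 3 endodermis libraries, against 1.01 in 1 epidermis library, 1.06 in 1 cortex library and 0 in the other 10 sorted libraries outside the endodermis. It was at 0 in all 9 libraries of unsorted protoplasts, intact tips and root cap. The endodermis held 467 reads and the 12 others 2, a ratio of 671 (95% exact interval 185 to 5554, counting error only), and the limma adjusted p was 3.61e-10. DESeq2 on recovered reads did not call it (adjusted p = 0.052).

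Zm00001d032750 was higher in the endodermis, at 451, 852 and 561, with the stele next at 7.64, 11.8 and 27.1. The cortex had 3.19, 1.00 and 9.45, the epidermis had at most 1.02, and the quiescent center was at 0 in its 3 libraries. The groups did not overlap, and the log2 difference was 7.64 (SE 0.92, limma adjusted p = 6.18e-06). Intact tips had 18.9, 36.9 and 0, and unsorted protoplasts were at 0 in all 3.

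Zm00001d004725 was lower in the endodermis, with 1 read in replicate 1 (0.709) and 0 in the other two. The epidermis held 28693, 22119 and 22562, and the cortex 1539, 1407 and 1037. The stele had 81.5, 60.9 and 134, below every cortex library, and the quiescent center had 109, 122 and 1520, of which the last lies within the cortex range. All 12 libraries were above every endodermis library (read ratio of the other 4 tissues to the endodermis 28210, 95% exact interval 5063 to 1114262, limma adjusted p = 5.59e-10). The root cap, at 14427, 17678 and 9040, lay below every epidermis library and above every cortex library.

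Zm00001d002026 was lower in the endodermis than in each other sorted tissue, and lower there than in every library outside the endodermis. It had 2.84, 0 and 0.716 there, against 309, 282 and 267 in the quiescent center, 126, 173 and 116 in the cortex, 54.3, 39.5 and 53.2 in the stele and 50.5, 44.5 and 48.0 in the epidermis. Its log2 difference was −5.72 (SE 0.47, limma adjusted p = 5.28e-08). In the libraries outside the comparison it ranged from 43.2 in the root cap to 565 in intact tips.

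**Figure D3:**
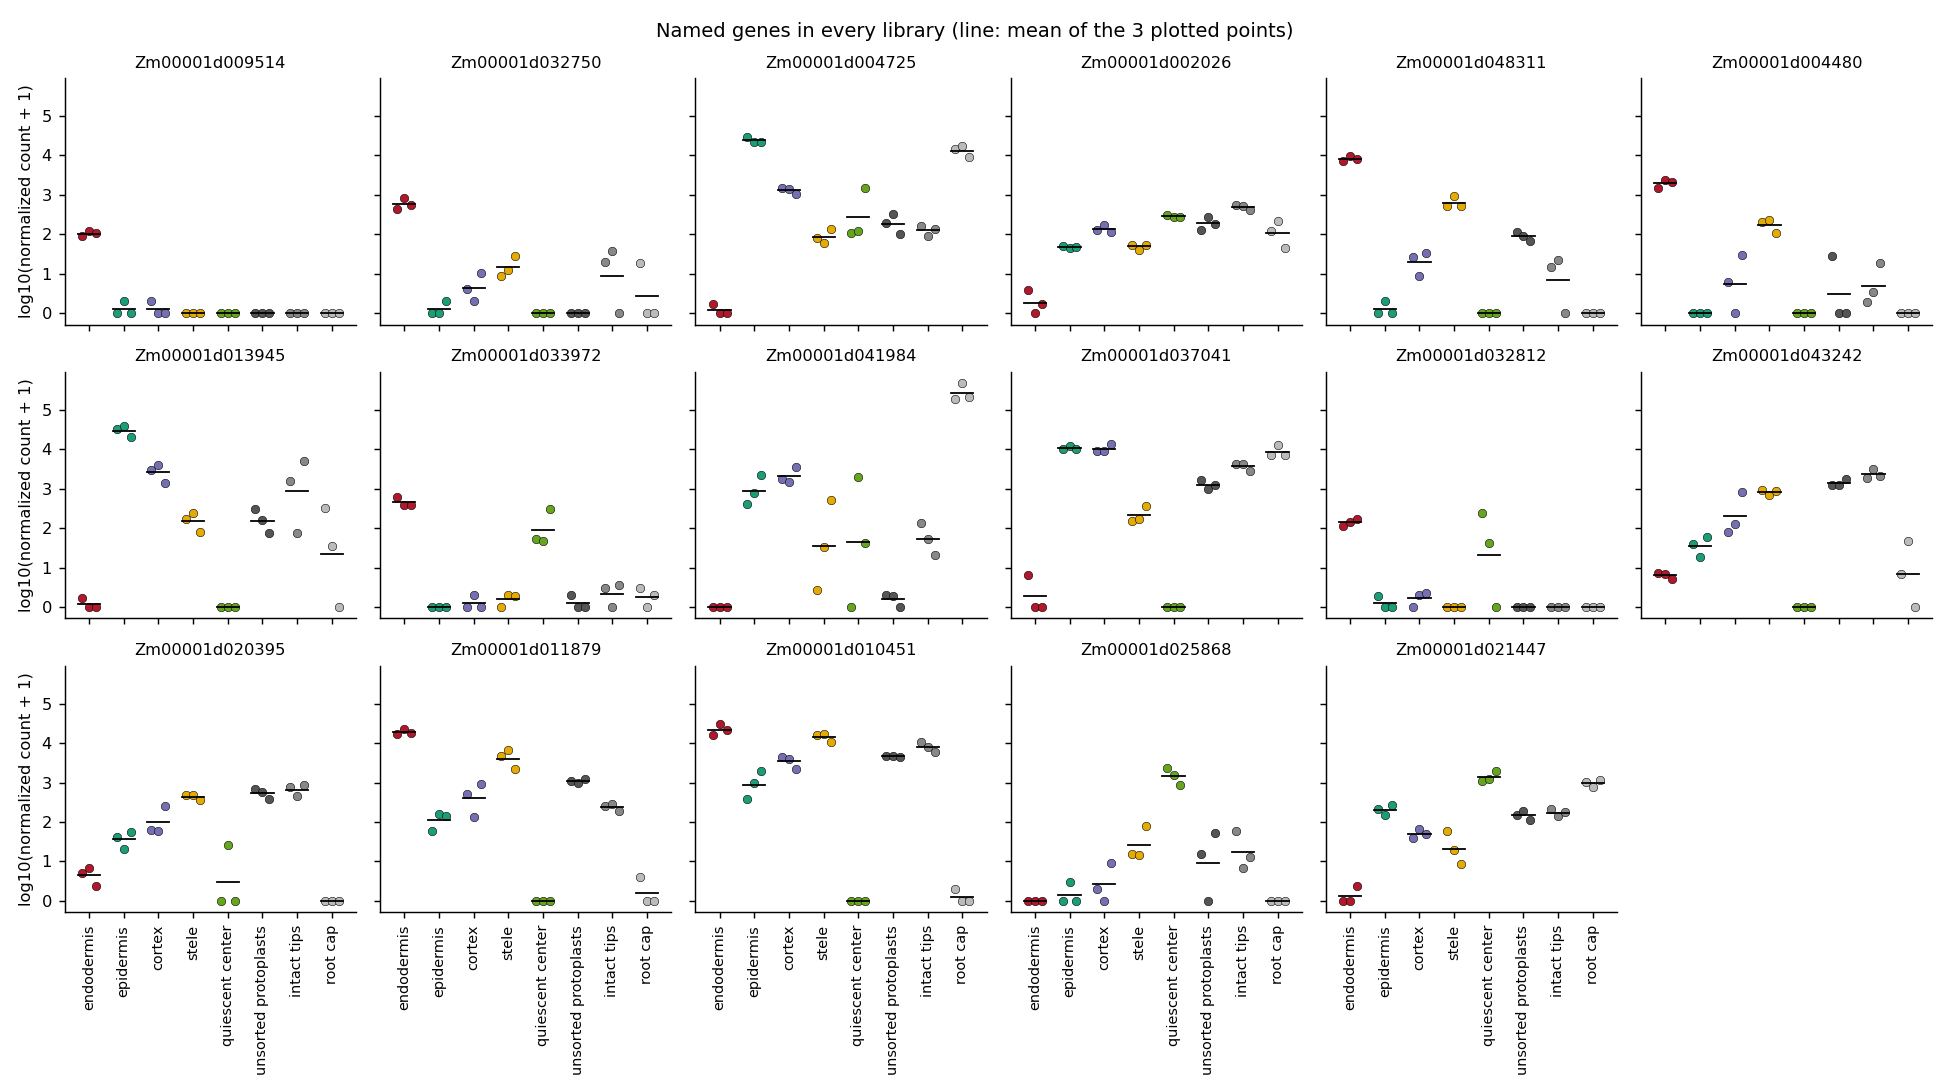
log10(normalized count + 1) of the named genes in every library, 1 panel per gene and 3 points per group, with a line at the mean of the 3 plotted points; the order of groups is that under the bottom panels. Zm00001d009514 is above 0 in all endodermis libraries and in 2 others, while Zm00001d004725 has at most 0.709 normalized counts in the endodermis and at least 22119 in the epidermis.

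Of the other tissues, the stele was closest to the endodermis among the called genes. Among the 2241 higher genes, the stele was the highest of the other 4 tissues in 1557 (69.5%), and the quiescent center was the lowest of them in 1180 (52.7%) and the epidermis in 888 (39.6%). Over all genes tested, the stele was the highest of these 4 in 30.3%, and the quiescent center was the lowest in 47.5% and the epidermis in 19.0%. The higher genes had a median log2 difference of 1.10 from the stele, 2.52 from the cortex, 3.62 from the epidermis and 3.80 from the quiescent center. The 1968 lower genes had −1.52 from the stele, −2.58 from the cortex, −3.01 from the epidermis and −2.46 from the quiescent center. These comparisons share the endodermis libraries with the one that chose the genes, and they describe the called genes.

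The higher genes were seldom called against every tissue. Of the 2241, 1854 (82.7%) were also called higher than in the epidermis and 1825 (81.4%) than in the quiescent center. Another 2 counts were 1210 (54.0%) for the cortex and 268 (12.0%) for the stele. Over all genes tested, these shares were 11.1%, 23.2%, 5.71% and 1.2%. Of the 1968 lower genes, 1667 (84.7%) were also called lower than in the epidermis and 1243 (63.2%) than in the quiescent center. For the cortex it was 1206 (61.3%) and for the stele 315 (16.0%). Over all genes tested, the shares called lower were 10.2%, 13.8%, 6.96% and 1.65%. Each tissue is part of the mean that chose the genes, so this overlap is in part built in. Over all genes tested, 13347 (52.2%) were called against none of the 4 tissues. Genes higher than in epidermis, cortex and quiescent center but not called against the stele numbered 718 (2.81% of the genes tested). Genes lower than in the 3 but not called against the stele numbered 367 (1.44%). Genes lower than in epidermis and cortex alone numbered 709 (2.77%), and genes higher than in these alone 310 (1.21%).

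Against the epidermis, the endodermis had 2834 genes higher and 2607 lower, 11.1% and 10.2% of the genes tested and 21.3% in either direction. Zm00001d048311 had 7089, 9575 and 8079 in the endodermis, against 1.01 in 1 epidermis library and 0 in the other two, a read ratio of 25444 (95% exact interval 4566 to 1005006, limma adjusted p = 8.61e-09). Its level followed the order endodermis, stele (525 to 926), cortex (8.0 to 32.4), and no library of one of these tissues reached into the next. Zm00001d004480 had 1533, 2344 and 2095 in the endodermis and 0 in all 3 epidermis libraries, at least 665-fold higher against a floor of 3 reads per library (limma adjusted p = 1.24e-06). Here, too, the stele was second, at 200, 235 and 106.

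Zm00001d013945 and Zm00001d004725 were lower in the endodermis than in the epidermis. Zm00001d013945 had 0.709, 0 and 0 in the endodermis, against 33293, 39166 and 19981 in the epidermis (read ratio of epidermis to endodermis 138053, 95% exact interval 24777 to 5452872, limma adjusted p = 5.69e-07). The cortex was second, at 3023, 3977 and 1438, followed by the stele at 174, 246 and 77.5. The quiescent center, the other reporter line, was at 0 in each library, with no call against the endodermis (limma adjusted p = 0.909). With variance weights per group, 8390 genes were called against the epidermis in place of 5441.

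Against the cortex, the other layer of ground tissue, 1460 genes were higher in the endodermis and 1778 lower, 5.71% and 6.96% of those tested and 12.7% in either direction. Zm00001d048311 was again the most separated of the higher genes, with 25.5, 8.0 and 32.4 in the cortex (log2 difference 8.68, SE 0.88, limma adjusted p = 1.08e-06). Zm00001d033972 had 627, 379 and 380 in the endodermis, against 0, 1.00 and 0 in the cortex, a read ratio of 1226 (95% exact interval 220 to 48444, limma adjusted p = 1.93e-07). It was at most 2.58 in the other 15 wild type B73 libraries, while the quiescent center, the other reporter line, had 50.9, 45.8 and 305.

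Zm00001d041984 and Zm00001d037041 were lower in the endodermis than in the cortex. Zm00001d041984 was at 0 in all endodermis libraries and at 1753, 1499 and 3546 in the cortex, at least 1040-fold lower against the floor of 3 reads per library (limma adjusted p = 3.26e-04). It was high above all in the root cap, at 186950, 466985 and 215233, while intact tips without cap had 133, 53.6 and 19.8. Other sorted tissues held it too, at 399, 801 and 2210 in the epidermis, 1.70, 32.1 and 512 in the stele and 0, 1998 and 40.2 in the quiescent center. Whether root cap RNA was in these sorts or in the cortex sort was not tested. Zm00001d037041 had 5.67, 0 and 0 in the endodermis, against 8818, 9087 and 13568 in the cortex (log2 difference −12.42, SE 0.54, limma adjusted p = 2.39e-11), and the epidermis overlapped the cortex with 10160, 12182 and 10161. For this gene the quiescent center, the other reporter line, was at 0 in each library, with no call against the endodermis (limma adjusted p = 0.188).

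Against the stele, the nearest tissue, 306 genes were higher in the endodermis and 421 lower, 1.2% and 1.65% of those tested and 2.84% in either direction. At an unadjusted limma p below 0.05 there were 1424 higher and 2223 lower. Zm00001d033972 had 0, 1.07 and 0.934 in the stele, a read ratio of 728 (95% exact interval 201 to 6018, limma adjusted p = 9.03e-07). Zm00001d032812 had 111, 139 and 175 in the endodermis and 0 in the stele, at least 49.0-fold higher against the floor (limma adjusted p = 9.89e-04), but edgeR did not call it (adjusted p = 0.063). It was at most 1.35 in the wild type B73 libraries, and the quiescent center had 241, 40.3 and 0.

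Zm00001d043242 and Zm00001d020395 were lower in the endodermis than in the stele. Zm00001d043242 had 6.38, 6.04 and 4.30 in the endodermis, against 903, 684 and 900 in the stele (log2 difference −6.98, SE 0.98, limma adjusted p = 2.03e-04). Zm00001d020395 had 4.25, 6.04 and 1.43 in the endodermis, against 472, 471 and 352 in the stele (log2 difference −6.58, SE 0.97, limma adjusted p = 3.25e-04). Both were at stele level or above in unsorted protoplasts, at 1260 to 1798 and 371 to 705, and in intact tips, at 1878 to 3126 and 452 to 850. The quiescent center did not follow the stele. Zm00001d043242 was at 0 in all 3 quiescent center libraries and was called higher in the endodermis than there (limma adjusted p = 0.035), and Zm00001d020395 had 0, 25.3 and 0 there, with no call (limma adjusted p = 0.658). The count against the stele was 372 and 436 without endodermis replicates 2 and 3, 449 and 396 without stele replicates 1 and 3, and 2763 with variance weights per group, in place of 727. edgeR called 381 genes and DESeq2 1242, while 1613 were called when only endodermis and stele were fitted and 1390 when the quiescent center libraries were left out of the fit.

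Against the quiescent center, the other tissue from a reporter line in B73/Hi-II, 5936 genes were higher in the endodermis and 3518 lower, 23.2% and 13.8% of those tested and 37% in either direction. Zm00001d011879 had 17068, 22773 and 18213 in the endodermis and 0 in all quiescent center libraries, at least 8214-fold higher against the floor. Zm00001d010451 had 15966, 29778 and 21809, also against 0, at least 9328-fold higher (limma adjusted p = 2.87e-12 and 1.78e-14). Both were high in the stele as well, at 2194 to 6640 and 10911 to 16669. Zm00001d010451 was at 5985 to 10610 in intact tips. Zeros were common in the quiescent center libraries, at 18.9% to 23.4% of all genes tested, against 2.89% to 8.60% in the endodermis libraries. Over all identifiers, 287 were at 0 in all 3 quiescent center libraries and at least 10 in the 12 other sorted ones. The same pattern held for 1 in the endodermis.

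Zm00001d025868 and Zm00001d021447 were lower in the endodermis than in the quiescent center. Zm00001d025868 was at 0 in all 3 endodermis libraries and at 2293, 1522 and 888 in the quiescent center, at least 721-fold lower (limma adjusted p = 1.12e-06). It was also low elsewhere, at most 2.02 in the epidermis and 8.10 in the cortex, with no call against either (limma adjusted p = 0.821 and 0.538). The stele had 14.4, 13.9 and 76.6, with a call (limma adjusted p = 0.031), and the root cap was at 0. Zm00001d021447 had 0, 0 and 1.43 in the endodermis, against 1089, 1235 and 1977 in the quiescent center and 1015, 770 and 1189 in the root cap (read ratio of quiescent center to endodermis 3071, 95% exact interval 850 to 25368, limma adjusted p = 3.07e-10). For genes with a mean of 100 to 1000, the median SD between libraries was 0.92 log2 units in the quiescent center and 0.39 in the endodermis. At a mean of 10 to 100 it was 3.23 in the quiescent center and 0.74 in the endodermis. The fit used 1 spread per gene for all groups. With variance weights per group 5476 genes were called in place of 9454, and 5997 when only the groups compared were fitted. Quantile normalization, which moved the median log2 difference of all genes to −0.06 from 0.44, put 4669 higher and 4786 lower.

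Genes higher in the endodermis than in each of the other 4 tissues numbered 153, and genes lower than in each numbered 136, 0.599% and 0.532% of the genes tested and 1.13% in either direction. These 289 calls became 159 and 186 without endodermis replicates 2 and 3, and 184 and 186 without stele replicates 1 and 3; edgeR gave 49 higher and 108 lower, and DESeq2 151 higher and 319 lower. The higher list had 313 genes without the filter on low values, 311 with a pseudocount of 10 and 310 with variance weights per group, against 138, 117 and 238 lower. Separation of all 3 endodermis libraries from all 12 others, without a test, held for 1154 genes above (4.52%) and 497 below (1.94%). Zm00001d009514, Zm00001d032750, Zm00001d004725 and Zm00001d002026, described above, are the most separated of the 153 and the 136. Against the 3 dye-sorted tissues alone, 245 genes were higher than in each and 260 lower than in each, 0.959% and 1.02% of the genes tested. Of the 245, 153 were also called higher than in the quiescent center, 80 were not called against it and 12 were called lower. Of the 260, 136 were also called lower, 89 were not called and 35 were called higher. Over all genes tested, 23.2% were called higher than in the quiescent center and 13.8% lower. All these comparisons share the endodermis libraries, so the split is a description.

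**Figure D4:**
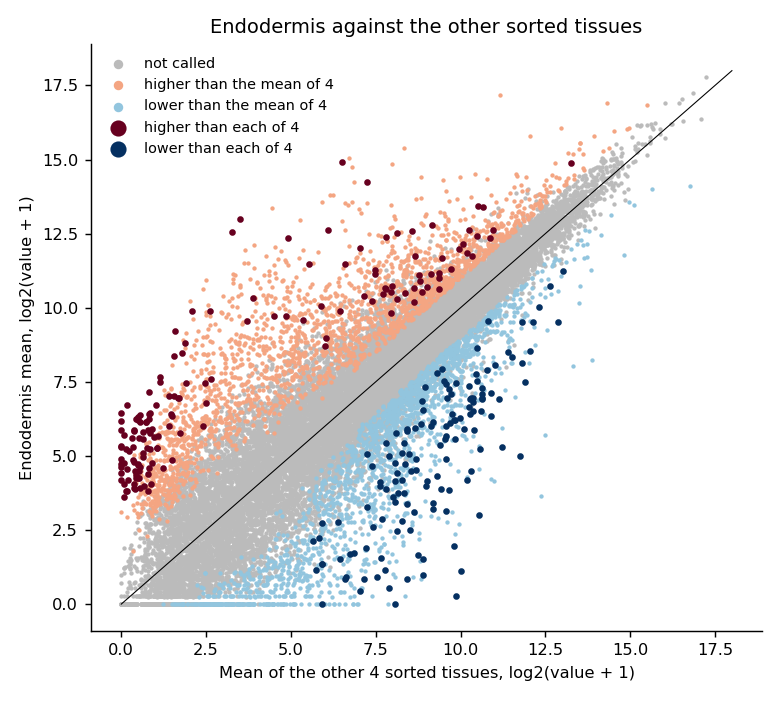
Mean log2(normalized count + 1) in the endodermis (vertical) against the mean of the other 4 sorted tissues (horizontal), 1 point per tested gene, with the line of equality. Light colours mark the 2241 and 1968 genes called against the mean, and dark colours the 153 higher and 136 lower than in each tissue; dark red points fall both near 0 and at high values on the horizontal axis.

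Many of the 153 genes were at 0 in whole root tips. Low values outside the endodermis are in part fixed by the choice of genes, since 66 of the 153 were below 10 in all 18 wild type B73 libraries and so passed the filter through the reporter lines, and the shares are given as a description. In intact tips 57 of the 153 (37.3%) were at 0 in all 3 libraries, in unsorted protoplasts 68 (44.4%) and in the root cap 75 (49.0%). In all 9 of these libraries together, 41 genes (26.8%) were at 0. Among all genes tested, which were not chosen in this way, the shares were 5.19%, 7.65%, 4.0% and 0.622%. None of the 136 lower genes was at 0 in all 3 libraries of any of these groups. Of the 197 lower genes found without endodermis replicate 1, 2 were at 0 in all 3 unsorted protoplast libraries and 1 in all 3 intact tip libraries.

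Genes higher in another tissue than in each other sorted tissue gave lower or like shares. In intact tips, 8 of 30 genes of the stele (26.7%), 3 of 26 of the epidermis (11.5%) and 51 of 1339 of the quiescent center (3.81%) were at 0 in all 3 libraries. In unsorted protoplasts the shares were 40.0%, 38.5% and 7.32%, so stele and epidermis genes came close to the 44.4% of the endodermis genes there. At 0 in all 9 libraries were 2 stele genes, 1 epidermis gene and 13 quiescent center genes. These shares were not tested against each other. Below 10 in all 18 wild type B73 libraries were 0 of 30 stele, 0 of 26 epidermis and 39 of 1339 quiescent center genes. For the endodermis list it was 66 of 153, so the limit of the choice of genes differs between the lists. Without endodermis replicate 1, 40 of 160 genes were at 0 in all 9 libraries.

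**Figure D5:**
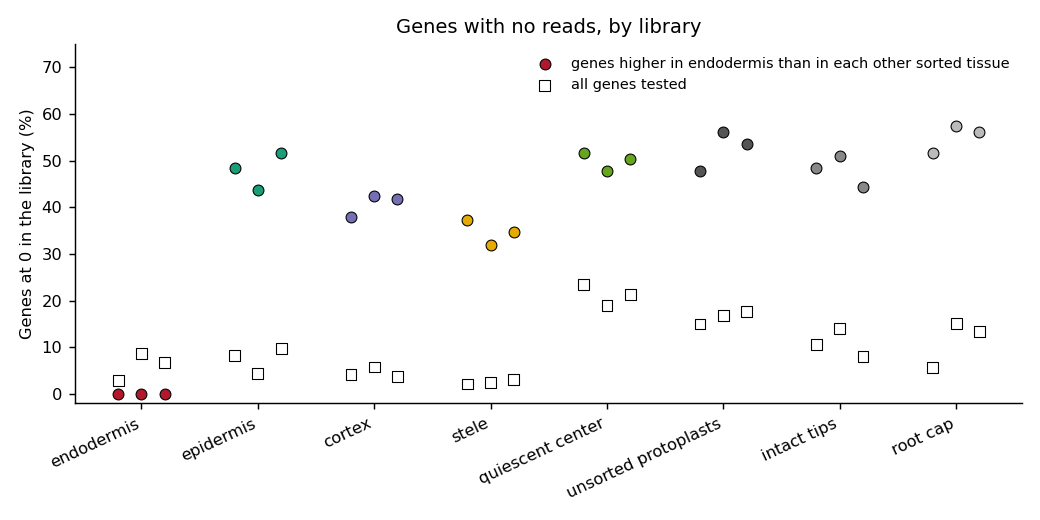
Share of genes at 0 in each library, in percent, for the 153 genes higher in endodermis than in each other sorted tissue (filled circles, coloured by group) and for all 25555 genes tested (open squares). The endodermis is at 0% for the 153 genes because of how they were chosen. The 9 unsorted libraries lie between 44.4% and 57.5%, above their squares. That choice fixes these shares in part too. Of the 153 genes, 66 were below 10 in all 18 wild type B73 libraries.

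The 153 genes differed in whether they were measurable outside the sorted tissues. Those below 10 in all 9 libraries outside the sorted tissues numbered 70, and their endodermis means ran from 13.1 to 462 with a median of 40.2. The other 83 genes had endodermis means from 11.8 to 32529 with a median of 1507. Their medians were 407 in unsorted protoplasts and 206 in intact tips. The split was made on the values in these 9 libraries, so the medians there follow from it in part. Of the 153, 66 were below 10 in all 18 wild type B73 libraries and passed the filter through the reporter lines. Zm00001d009514 is 1 of the 70.

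Over all 39510 identifiers, 25 had at least 10 in each endodermis library and at most 3 reads in each of the other 21 libraries, and 9 of these were at 0 in all 21. This pattern was looked for after the data were seen. The same pattern held for 20 genes in the root cap, 9 in the quiescent center, 1 in the stele and 0 in the epidermis, cortex, unsorted protoplasts and intact tips. The means of the 25 genes reached at most 104 (Zm00001d009514). The greater depth of the endodermis libraries moves with this count, and its part in it was not tested. With endodermis replicates 2 and 3 alone, 42 genes met the pattern.

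With the quiescent center set aside, 80 genes had at least 10 in each endodermis library and at most 3 reads in each of the 18 wild type B73 libraries. The same pattern held for 45 genes in the quiescent center, the other reporter line. Of the 80, 19 also had at least 10 in all 3 quiescent center libraries, 12 in 2 and 18 in 1, while 31 had less than 10 in each. Zm00001d033972 was the highest of the 80, with an endodermis mean of 462. In the opposite direction, 8 genes had at least 10 in all 18 wild type B73 libraries and at most 3 reads in each endodermis library. The endodermis differs from these 18 libraries in line as well as in tissue, and the contributions cannot be told apart.

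The called genes were also followed in the libraries outside the comparison. Between unsorted protoplasts and intact tips, the 2241 higher genes had a median log2 difference of 0.17 and the 1968 lower genes of −0.46, beside −0.15 over all genes tested. At least 1 log2 unit higher in unsorted protoplasts were 28.9% of the higher genes, 15.8% of the lower genes and 20.7% of all genes tested. Between root cap and intact tips, the higher genes had a median of −0.53 and the lower genes of 0.50, beside 0.06 over all genes. At least 1 log2 unit lower in the root cap were 42.0% of the higher genes, 17.3% of the lower genes and 24.8% of all genes tested. The unsorted libraries entered the choice of genes only through the filter and the shared variance, and these values are descriptions with no test.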

How the data were processed

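Root tissues were sorted or dissected and their RNA was amplified before sequencing, per the labels' protocols. Trimmomatic, kallisto 0.43 and DESeq2 are listed in the submitters' processing notes. Build and annotation: not given in the sources used here. Each value of the deposited table is a signal per gene, which the authors normalized by 1 size factor per library; 8 columns of averages were not used. Values were whole multiples of 1 read, worth 0.604 to 1.49 normalized units (100.0% of values above 0 within 0.01 of a whole number), so reads were recovered, 21978670 to 50289026 per library. In 4 libraries this step lies so near 1 that the test of it is weak. Since kallisto estimates counts, genes with near-identical copies are uncertain. Floors of 3 reads and 95% intervals cover counting error only.

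Genes at 10 or more in at least 3 libraries were tested (25555). Values were fitted as log2(value + 1), 1 mean per group over 24 libraries, with limma 3.58.1 (trended variance, R 4.3.3) and Benjamini-Hochberg adjustment over all genes tested; edgeR 4.0.16 and DESeq2 1.42.0 on recovered reads were alternatives. The named genes are, per comparison, those called with a mean of at least 100 on the higher side and the widest gap between the nearest libraries of the 2 sides, where the sides did not overlap. No pair of libraries in a sorted group agreed within sampling noise. The comparisons, lists and members were chosen with earlier results of these data known. Gene lists by name (ground tissue regulators, Casparian strip, suberin and others) were not analysed here, since identifiers matched no name. The fitting steps were tested on simulated data, for the comparison with the mean of the other 4 sorted tissues. At a log2 change of 1.5 the fit recovered 14 of 66 changed genes (21.2%). It recovered 32 of 67 (47.8%) at a log2 change of 2 and 42 of 67 (62.7%) at 3. The median ratio of estimated to true change was 0.97, 0.95 and 1.00. Among the genes left unchanged, 7 were called. Every simulated gene had 1 spread for all groups and, apart from the planted changes, 1 mean. In the data the groups differed in both, with the larger spread in the quiescent center. The simulation therefore does not cover unequal spread.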

Additional observations from a re-analysis of the deposited data

How the results depend on the processing

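Among the recomputed counts, 100 stayed within 1.5 times the reported one and 22 did not, all of them against the stele, the epidermis, the quiescent center or each of the other 4 tissues; among values for named genes, 382 kept direction and call and 2 lost the call. Zm00001d009514 was not called by DESeq2 (adjusted p = 0.052) nor Zm00001d032812 by edgeR (adjusted p = 0.063). With variance weights per group the counts were 8390 against the epidermis, 2763 against the stele, 5476 against the quiescent center and 548 against each of the 4. edgeR gave 381 against the stele and 157 against each (49 higher, 108 lower), and DESeq2 gave 1242 and 470 (151 higher, 319 lower). Fitting only the groups compared gave 1613 against the stele and 5997 against the quiescent center. Without the filter 451 genes differed from each (313 higher, 138 lower), and pseudocount 10 gave 311 higher and 117 lower. Settings chosen after seeing the data left out the quiescent center: 1390 against the stele, and 505 against each of the 3 dye-sorted tissues, or 914 with its libraries out of the fit. Leaving out single libraries gave counts of 2827 to 4779 against the mean of 4, 4204 to 4835 (epidermis), 2275 to 3220 (cortex), 372 to 996 (stele), 8094 to 9872 (quiescent center) and 159 to 372 against each, where 159 and 186 are without endodermis replicates 2 and 3 and 184 and 186 without stele replicates 1 and 3. The cause of these changes was not tested.

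Same-numbered libraries of endodermis and another tissue had correlations of deviations from −0.37 to 0.47, 5 of 12 above 0.1, so the numbers were not taken to pair samples. With a replicate block the counts were 4098 against the mean of 4, 5313, 3098, 670 and 9389 against epidermis, cortex, stele and quiescent center, and 266 against each.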
